A study of Danio rerio with 8 samples.

Results

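The comparison set EpiCs against CMs of *tcf21*-/- zebrafish larvae, both sorted from hearts at 96 hpf (hours post fertilization), to describe which differences between these cell types were found where *tcf21* carried a loss-of-function allele. It took 4 of the 8 libraries of the study, 2 of *tcf21*-/- EpiCs and 2 of *tcf21*-/- CMs, and the 16077 of 21286 genes with a mean normalised read count of at least 10 over the 8 libraries. The other 4 libraries, 2 of *tcf21*+/+ EpiCs and 2 of *tcf21*+/+ CMs at the same stage, gave the same comparison without the mutation. All larvae of the 4 groups carried the reporters TgBAC(tcf21:NLS-EGFP) and, by the labels, Tg(myl7:mCherry-CAAX). EpiCs were taken as EGFP-positive cells, with cells that carried both colours kept among them, and CMs as EGFP-negative cells with the *myl7* reporter. By the study, cells of both colours were ventricular EpiCs with low *myl7* reporter levels. It describes EpiCs with EGFP alone as likely those of the outflow tract and some of the ventricle. The *tcf21* allele is a small deletion in the first exon that shifts the reading frame, and the study describes its mRNA as stable, so reads on *tcf21* do not report the mutation. The 2 genotypes did not share parents, and mutants were recognised by eye from missing head muscle. Epicardial cover of the ventricle was reduced to a variable degree in mutants, and only those with substantial cover were taken. The study says that this choice might have favoured larvae with milder differences in transcripts. Genotype, parentage and this choice of larvae cannot be told apart. Each library held pooled hearts of several larvae, and the libraries were collected over several sorting sessions that the labels do not assign.

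The epicardium is the mesothelial sheet that spreads over the naked heart tube, lays down matrix, sends growth factors and retinoic acid to the myocardium and sheds cells that become fibroblasts and mural cells. Tcf21 is a basic helix-loop-helix transcription factor of this sheet, acting with Tbx18, Wt1 and the epithelial-to-mesenchymal transition (EMT) factors. CMs below it are built around sarcomeres, calcium release and oxidative metabolism under the control of Tbx5, Nkx2.5, Gata and Mef2 factors.

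Values were gene counts that the authors had divided by 1 factor per library and rounded. The low values gave an estimate of the reads behind them, 8.32 and 9.39 M for the *tcf21*-/- CM libraries and 10.57 and 11.4 M for the *tcf21*-/- EpiC libraries (6.45 to 11.35 M in *tcf21*+/+). Across genes, which are not independent, the 2 replicates correlated at 0.939 in each *tcf21*-/- group. The 2 libraries of a group were still unlike for some genes. CM replicate 2 held more of several EpiC genes than CM replicate 1, with *fli1a* at 140 against 15, *cxcl12a* at 87 against 1 and *mmp2* at 48 against 0. Of the EpiC libraries, replicate 2 held more of the erythroid markers, with a sum of 1128 against 375. Their part in the results was not tested. Differences are given as log2FC of EpiCs over CMs on log2(value + 1), so that a positive log2FC is higher in EpiCs and changes of low genes are understated. Genes with an adjusted P (Padj, limma, adjusted by Benjamini-Hochberg across the 16077 genes) under 0.05 and an absolute log2FC of at least 0.59 were called. Errors are standard errors (SE) from a spread pooled per gene over all 4 groups, so they are not the spread of the *tcf21*-/- pairs alone. Group size is 2 libraries throughout.

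Of the 16077 genes, 3369 were higher in *tcf21*-/- EpiCs (21.0%) and 2890 higher in *tcf21*-/- CMs (18.0%), 6259 in all (38.9%). The counts of each gene list below are to be read beside these shares. The difference was at least 8-fold for 1552 of the genes higher in EpiCs and for 940 of those higher in CMs. The CM libraries had no reads on 511 of the genes called higher in EpiCs, and the EpiC libraries had none on 142 of those called higher in CMs. In *tcf21*+/+ hearts, 3679 genes (22.9%) were higher in EpiCs and 3026 (18.8%) in CMs.

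Most cell type differences were found in both genotypes. 5080 genes were called in the same direction in *tcf21*-/- and *tcf21*+/+, which is 81.2% of the genes called in *tcf21*-/- and 75.8% of those called in *tcf21*+/+. That count was 4341 when each comparison was fitted on its own libraries, with 6520 genes called in *tcf21*-/- and 5150 in *tcf21*+/+. Of the 6705 genes called in *tcf21*+/+, 97.9% had a log2FC of the same sign in *tcf21*-/-, and for 94.1% the *tcf21*-/- EpiC and CM values did not overlap and lay the same way. Among all genes, the *tcf21*-/- groups did not overlap with EpiCs higher in 39.7% and with CMs higher in 35.2%. The comparisons of the 2 genotypes share no library but share the pooled spread of each gene, so their calls are not independent. Their log2FC correlated across genes at 0.885, given as a description because genes are not independent and libraries of both were prepared alike. In the main fit, a further 1170 genes (7.28%) were called in *tcf21*-/- alone, 1065 of them with the same sign in *tcf21*+/+. Another 1616 (10.1%) were called in *tcf21*+/+ alone, 1481 of them with the same sign in *tcf21*-/-. 9 genes (0.056%) were called in opposite directions. A test of the difference itself, the log2FC in *tcf21*-/- minus that in *tcf21*+/+, called 0 genes with limma (lowest Padj = 0.0992). At an unadjusted P under 0.05 it listed 1137 genes (7.07%), where 804 would be listed by chance. That count of 0 was 9 with quantile normalization, 58 without the abundance trend and, when a *tcf21*+/+ CM library was left out, 6 for replicate 1 and 119 for replicate 2, as the closing section sets out.

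**Figure D1:**
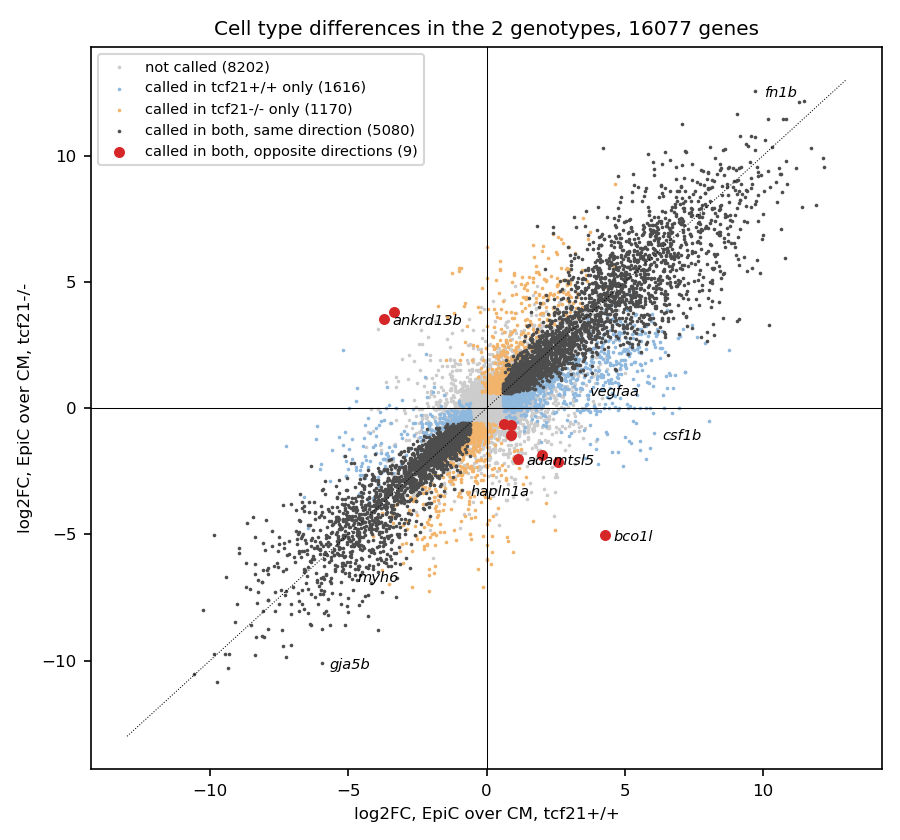
Each point is 1 of 16077 genes, with its log2FC of EpiCs over CMs in *tcf21*+/+ on the x axis and in *tcf21*-/- on the y axis, and the dotted line marks equal values. Dark points, the 5080 genes called in the same direction in both genotypes, run along that line, and the 9 red points were called in opposite directions.

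The labelled cell types were checked against their markers first. *tcf21* and *myl7*, the genes of the reporters, served the sorting and are given as a description. *tcf21* (ENSDARG00000036869, danRer11 chromosome 23, 31554269 to 31555696) was read at 1636 and 1454 in EpiCs and 5 and 12 in CMs, and *myl7*, the atrial and ventricular regulatory light chain of zebrafish CMs, had 1327 and 1222 in EpiCs and 2759 and 2470 in CMs. The EpiC libraries thus still carried *myl7*, with a log2FC of -1.04. Of 12 epicardial markers, 9 were tested and 8 were higher in *tcf21*-/- EpiCs, with a median log2FC of 7.21 (7.60 in *tcf21*+/+). *podxl*, a sialomucin of the apical membrane, had a log2FC of 0.52, under the limit for a call, and was called with quantile and cyclic loess normalization. *upk3b* fell below the filter, with 0 in all 4 *tcf21*-/- libraries, and *bnc1* and *mslnb* were not analysed here. All 13 gene records of the 12 CM markers were higher in CMs, with a median log2FC of -2.20 (-2.59 in *tcf21*+/+).

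Named epicardial genes stayed far above CMs in *tcf21*-/-. *tbx18*, the T-box factor of the proepicardium, had values of 2647 and 2486 in EpiCs and 0 and 26 in CMs (log2FC 8.95, SE 1.2, Padj = 0.000521). *wt1a*, a zinc finger factor that marks epicardium, had 913 and 621 in EpiCs and 0 and 8 in CMs (log2FC 7.97, SE 0.95, Padj = 0.000274), and its paralogue *wt1b* had 1183 and 980 in EpiCs and 29 and 14 in CMs (log2FC 5.67, SE 0.42, Padj = 3.00e-05). For these 3 genes both EpiC libraries lay above both CM libraries. *aldh1a2*, which makes retinoic acid, had 3473 and 2899 in EpiCs and 22 and 19 in CMs (log2FC 7.21, SE 1.52, Padj = 0.00539), and *postnb*, the matricellular protein periostin, had 4688 and 4556 in EpiCs and 0 and 22 in CMs (log2FC 9.91, SE 1.16, Padj = 0.000251). *cav1*, the caveolar coat protein, was present in both cell types, at 5776 and 5471 in EpiCs and 763 and 837 in CMs, and still differed by 2.81 (SE 0.15, Padj = 1.00e-05).

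On the CM side, the markers differed by unequal amounts. *myh6*, the atrial myosin heavy chain, had values of 88 and 130 in EpiCs and 11363 and 10116 in CMs (log2FC -6.63, SE 0.36, Padj = 1.07e-05), and *nppa*, an atrial natriuretic peptide gene, had 127 and 80 in EpiCs and 3573 and 3065 in CMs (log2FC -5.02, SE 0.27, Padj = 1.07e-05). The titin genes were also well separated, with *ttn.1* at 1161 and 603 in EpiCs and 23151 and 22093 in CMs (log2FC -4.75, SE 0.41). Thin filament markers differed less, and *tnnt2a*, troponin T, had 1361 and 1300 in EpiCs and 2606 and 2273 in CMs (log2FC -0.87, SE 0.20, Padj = 0.00827). Its groups did not overlap either. In *tcf21*+/+ CMs *tnnt2a* had 3569 and 2415. A read was worth an estimated 1.141 and 0.9745 in *tcf21*-/- CMs and 1.5705 and 1.062 in *tcf21*+/+ CMs. These CM values thus stood for nearly equal read numbers, although the libraries held 6.45 to 9.39 M reads. The CM values of *cmlc1* and *myl7* did so too. Whether counts of such genes had a ceiling was not tested, so the sizes of their log2FC are uncertain. The summed value of the 12 CM markers was 12033 to 13789 in *tcf21*-/- EpiCs and 103313 to 111744 in *tcf21*-/- CMs, against 11268 to 17565 and 111026 to 117926 in *tcf21*+/+, and the source of the CM transcripts in the EpiC libraries was not tested.

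Markers of other cells moved with the comparison as well. All 9 tested leukocyte markers were higher in *tcf21*-/- CMs. *ptprc* and *cxcr3.2* passed the filter only through the *tcf21*-/- CM libraries, so this count is a description. *mpeg1.1*, a macrophage perforin, had values of 13 and 0 in EpiCs and 658 and 808 in CMs (log2FC -7.61, SE 1.09, Padj = 0.000739), and *ptprc*, the pan-leukocyte CD45 gene, had 0 and 0 in EpiCs and 75 and 128 in CMs, at least 40.1-fold higher in CMs. The summed value of the 12 leukocyte markers in the table was 60 to 116 in *tcf21*-/- EpiCs, with 2 markers at 0 in both libraries, and 2383 to 3297 in *tcf21*-/- CMs, against 27 to 34 and 659 to 710 in *tcf21*+/+, where 5 of 9 were called. That count of 5 was 7 with quantile and 9 with cyclic loess normalization. The limma test of the difference between genotypes called 0 of the 9. In bulk samples, fewer cells of a type and less RNA per cell cannot be told apart. Of 16 endothelial markers, 6 were higher in EpiCs, among them *kdrl* (the VEGF receptor, log2FC 5.43, SE 0.50) and *fli1a* (log2FC 5.11, SE 0.84), and 2 in CMs, *vwf* (log2FC -8.78, SE 0.64) and *cdh5* (log2FC -4.14, SE 0.93). Their sum was 8350 to 8708 in EpiCs and 2472 to 2522 in CMs. Of 11 smooth muscle and mural markers, 7 were higher in EpiCs and 0 in CMs, with *rgs5a* at 3560 and 3618 in EpiCs and 0 and 7 in CMs and *pdgfrb* at 999 and 1271 in EpiCs and 0 and 6 in CMs, and a sum of 23015 to 25865 against 3830 to 4496. Skeletal muscle markers, 5 of 8 higher in EpiCs and 1 in CMs, summed to 1891 to 2508 against 368 to 411, and erythroid markers, 2 of 12 higher in CMs, to 375 to 1128 against 1366 to 2208. Neural crest and pigment markers summed to at most 47, and none passed the filter. The part of these other cells in the gene groups that follow was not tested.

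**Figure D2:**
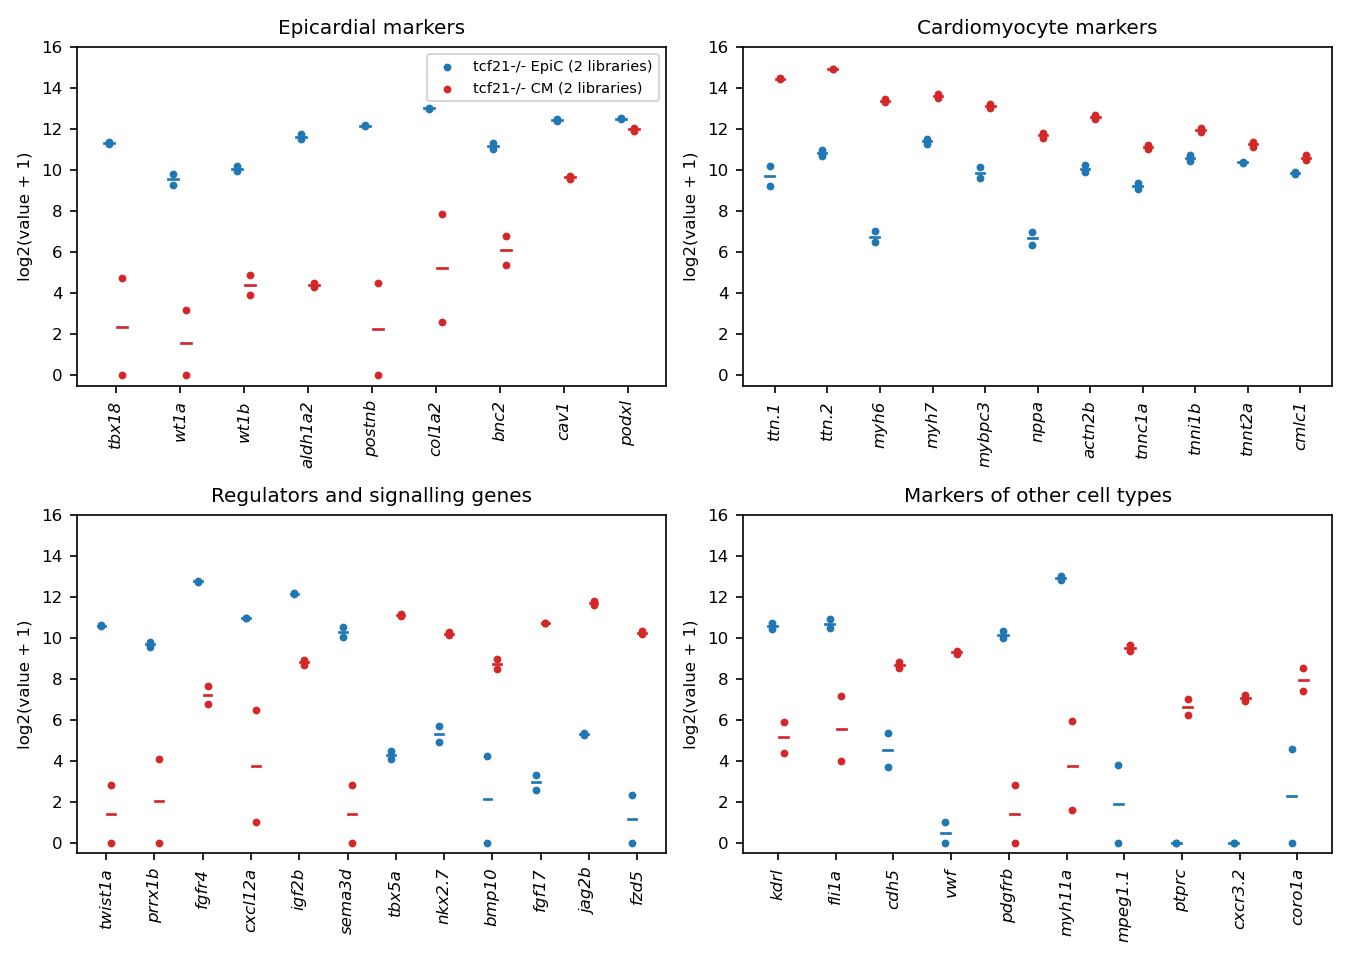
Values of single *tcf21*-/- libraries on log2(value + 1), with 1 point per library, a bar at the mean of the 2 libraries, EpiCs in blue and CMs in red. Epicardial markers other than *podxl* and *cav1* lie near 0 to 8 in CMs and at 9 or above in EpiCs, plotted CM markers other than *myh6* and *nppa* lie at 9 or above in both cell types, and *ptprc* and *cxcr3.2* are at 0 in both EpiC libraries.

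Among genes with a mean of at least 50, the 10 largest differences in favour of EpiCs included genes of matrix and cytoskeleton. *fn1b*, a fibronectin (danRer11 chromosome 1, 5504128 to 5543065), was read at 5103 and 7088 in EpiCs and 0 and 0 in CMs, at least 1781-fold higher in EpiCs (Padj = 0.000177). *flnb*, the actin crosslinker filamin B, had 4387 and 4753 in EpiCs and 0 and 0 in CMs (at least 1335-fold, Padj = 5.71e-06), and *ptgs2a*, a cyclooxygenase that starts prostaglandin synthesis, had 2837 and 2757 in EpiCs and 0 and 0 in CMs (at least 817-fold, Padj = 6.43e-06). These 3 genes were not detected in either CM library. The others were *pi15b*, *mxra8b*, *lsp1a*, *sez6l*, *esyt3*, *crispld1b* and *slc5a1*, a sodium-coupled glucose transporter, with log2FC between 10.77 and 12.14. 9 of the 10 had 0 in both CM libraries, and all 10 were also called higher in EpiCs in *tcf21*+/+.

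Transcription factors of the epicardium and of EMT lay mostly on the EpiC side. Of 24 tested, 20 were higher in *tcf21*-/- EpiCs, the same 20 as in *tcf21*+/+, and 1 was higher in CMs, with a median log2FC of 5.86 (5.83 in *tcf21*+/+; all genes tested, 0.09). *twist1a*, a bHLH factor of mesenchyme, had values of 1560 and 1508 in EpiCs and 0 and 6 in CMs (log2FC 9.18, SE 0.91, Padj = 0.000108). *prrx1b*, a homeobox factor of fibroblast-like cells, had 749 and 883 in EpiCs and 0 and 16 in CMs (log2FC 7.63, SE 1.42, Padj = 0.00296). Both were near or at 0 in CMs. The exception was *zeb1b*, an EMT transcription factor, which had 964 and 1095 in EpiCs and 1691 and 1887 in CMs (log2FC -0.80, SE 0.25, Padj = 0.0332). It was not called with cyclic loess normalization (Padj = 0.0858) or at equal read totals (Padj = 0.0644). *tcf21* itself is in this list.

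Most collagen genes and the enzymes that modify them were higher in EpiCs. 27 of 38 collagen genes were higher in EpiCs and 3 in CMs (median log2FC 5.74). *col6a4a*, of the microfibrillar type VI, had values of 3993 and 5535 in EpiCs and 0 and 41 in CMs (log2FC 9.5, SE 1.51, Padj = 0.00131), and *col8a1a*, a short-chain collagen, had 342 and 412 in EpiCs and 0 and 0 in CMs, at least 110.1-fold higher (Padj = 8.33e-05). The collagen exceptions included *col4a6*, of basement membranes, with 628 and 677 in EpiCs and 2216 and 2316 in CMs (log2FC -1.80, SE 0.45, Padj = 0.0129). Of 19 enzymes that modify collagen, 14 were higher in EpiCs and 0 in CMs. *loxl1*, a lysyl oxidase that crosslinks elastin and collagen, had 6868 and 8482 in EpiCs and 8 and 12 in CMs (log2FC 9.46, SE 0.30, Padj = 5.71e-06), and *plod2*, a lysyl hydroxylase, had 4314 and 4233 in EpiCs and 50 and 79 in CMs (log2FC 6.06, SE 0.26, Padj = 5.71e-06). Small leucine-rich proteoglycans gave 7 of 9 higher in EpiCs and 0 in CMs, with *aspn*, asporin, at 1562 and 1749 in EpiCs and 0 and 6 in CMs and *lum*, lumican, at 2255 and 2351 in EpiCs and 14 and 26 in CMs. In each of these genes except *col4a6*, both EpiC libraries lay above both CM libraries.

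Basement membrane genes were split between the cell types. Of 24 laminin, nidogen, type IV and type XVIII collagen, perlecan and agrin genes, 10 were higher in EpiCs and 4 in CMs. The CM count was near the share of all genes tested (21.0% higher in EpiCs, 18.0% in CMs). *nid1a*, a nidogen that links laminin to collagen, had values of 6613 and 6676 in EpiCs and 1 and 38 in CMs (log2FC 9.56, SE 1.11, Padj = 0.000244), and *nid2a* had 3774 and 4818 in EpiCs and 14 and 20 in CMs (log2FC 7.91, SE 0.31, Padj = 5.71e-06). *agrn*, the heparan sulphate proteoglycan agrin, had 852 and 852 in EpiCs and 3290 and 3215 in CMs (log2FC -1.93, SE 0.24, Padj = 0.000324), so that the CM libraries were the higher ones. Of 11 hyaluronan synthases, link proteins and lecticans, 6 were higher in EpiCs and 3 in CMs. The synthase *has1* had 319 and 169 in EpiCs and 0 and 0 in CMs (at least 71.3-fold higher in EpiCs), while *hapln1a*, a link protein that ties hyaluronan to lecticans, had 209 and 219 in EpiCs and 2351 and 1781 in CMs (log2FC -3.25, SE 0.21, Padj = 1.76e-05). Metalloproteinases and their inhibitors gave 16 of 31 higher in EpiCs and 2 in CMs, with *mmp2*, a gelatinase, at 3659 and 3884 in EpiCs and 0 and 48 in CMs (log2FC 9.07, SE 1.53, Padj = 0.00178). Matricellular and elastic fibre genes gave 16 of 33 and 2, and *elnb*, an elastin, had 5055 and 5795 in EpiCs and 0 and 9 in CMs (log2FC 10.74, SE 1.47, Padj = 0.000581). *mfap4*, 1 of the 2 higher in CMs, is in zebrafish also a macrophage gene and stands in the leukocyte list too.

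**Figure D3:**
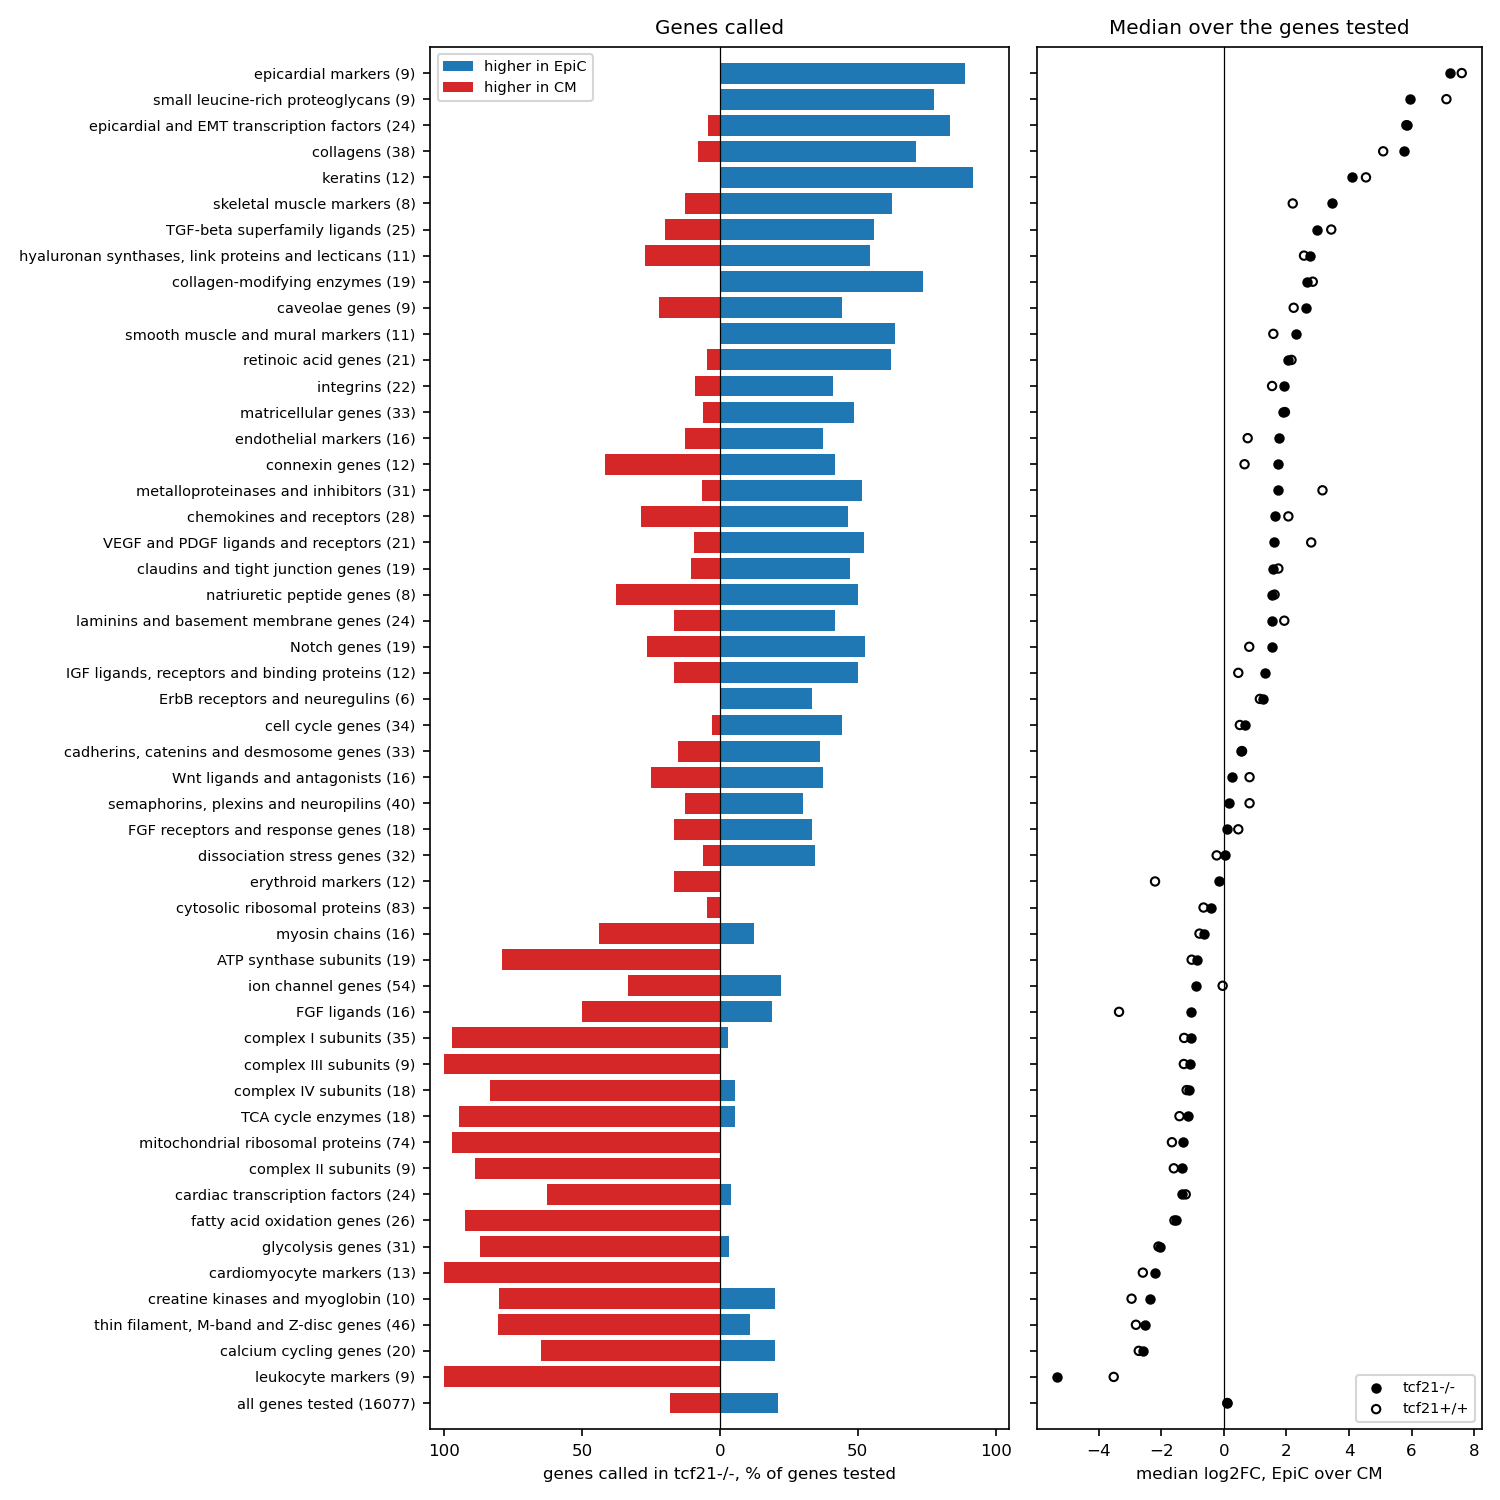
Left, the percentage of tested genes of each list that were called higher in *tcf21*-/- EpiCs (blue, to the right) or CMs (red, to the left), with the number tested in parentheses and all genes tested at the bottom. Right, the median log2FC of each list in *tcf21*-/- (filled) and *tcf21*+/+ (open), from 7.21 for epicardial markers to -5.34 for leukocyte markers in *tcf21*-/-.

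Genes by which EpiCs could signal to their neighbours were also divided. Retinoic acid genes lay on the EpiC side, with 13 of 21 higher there and 1 in CMs. *rdh10a*, the retinol dehydrogenase ahead of *aldh1a2*, had values of 3457 and 3287 in EpiCs and 66 and 1 in CMs (log2FC 8.19, SE 1.61, Padj = 0.0038), and *crabp2a*, a binding protein of retinoic acid, had 182 and 45 in EpiCs and 0 and 0 in CMs (at least 33.2-fold). *dhrs3b*, which reduces retinal back to retinol, had 297 and 386 in EpiCs and 1153 and 1275 in CMs (log2FC -1.84, SE 0.21, Padj = 0.000228), whereas its paralogue *dhrs3a* had 99 and 91 in EpiCs and 0 and 0 in CMs. The 2 paralogues thus differed in direction. Among VEGF and PDGF ligands and receptors, 11 of 21 were higher in EpiCs and 2 in CMs, with *pdgfc* at 516 and 674 in EpiCs and 0 and 0 in CMs, at least 174-fold higher in EpiCs (Padj = 1.43e-05). Of 12 IGF genes, 6 were higher in EpiCs and 2 in CMs. *igf2b*, a growth factor of the insulin family, had 4591 and 4406 in EpiCs and 408 and 488 in CMs (log2FC 3.33, SE 0.21, Padj = 1.67e-05), and *igf1* had 167 and 166 in EpiCs and 0 and 0 in CMs (at least 48.6-fold). The binding protein gene *igfbp1b* went the other way, with 0 and 0 in EpiCs and 43 and 134 in CMs (at least 35-fold higher in CMs).

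Ligands of the TGF-beta superfamily gave 14 of 25 higher in EpiCs and 5 in CMs. *gdf10a* had values of 458 and 608 in EpiCs and 0 and 0 in CMs (at least 156-fold higher in EpiCs), and *bmp10*, known as a ligand of trabecular myocardium in mouse, had 18 and 0 in EpiCs and 489 and 360 in CMs (log2FC -6.59, SE 1.19, Padj = 0.0025). Chemokines and their receptors gave 13 of 28 and 8, and *cxcl12a*, which guides cells through Cxcr4, had 2003 and 1982 in EpiCs and 1 and 87 in CMs (log2FC 7.23, SE 1.36, Padj = 0.00312). Of those higher in CMs, *cxcr3.2* is also a leukocyte marker and was at 0 and 0 in EpiCs and 120 and 148 in CMs. The guidance cue *sema3d* had 1051 and 1447 in EpiCs and 0 and 6 in CMs (log2FC 8.87, SE 1.13, Padj = 0.000392), while *sema3ab*, of the same class, had 1 and 40 in EpiCs and 994 and 973 in CMs (log2FC -6.76, SE 1.23, Padj = 0.00262). These semaphorins were separated in opposite directions. Over all 40 semaphorin, plexin and neuropilin genes, 12 were higher in EpiCs and 5 in CMs, beside 21.0% and 18.0% of all genes tested. Their median log2FC of 0.17 turned to -0.10 under quantile normalization. The Notch ligand gene *jag2b* had 40 and 37 in EpiCs and 3087 and 3542 in CMs (log2FC -6.39, SE 0.39, Padj = 1.50e-05), and the Notch target *hey1* had 1132 and 1690 in EpiCs and 80 and 86 in CMs (log2FC 4.04, SE 0.30, Padj = 3.06e-05), within a list of 19 with 10 higher in EpiCs and 5 in CMs. Of 16 Wnt ligand and antagonist genes, 6 were higher in EpiCs and 4 in CMs. The secreted antagonist *sfrp1a* had 839 and 902 in EpiCs and 7 and 4 in CMs (log2FC 7.11, SE 0.70, Padj = 0.000102), and the ligand *wnt6b* had 3 and 2 in EpiCs and 79 and 127 in CMs (log2FC -4.87, SE 0.81, Padj = 0.00161).

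Of 16 genes named fgf, 8 were higher in CMs, 3 in EpiCs and 5 were not called. *fgf17*, a secreted ligand, had values of 5 and 9 in EpiCs and 1663 and 1687 in CMs (log2FC -7.76, SE 0.97, Padj = 0.00037), and *fgf8a* had 0 and 2 in EpiCs and 75 and 110 in CMs (log2FC -5.73, SE 0.94, Padj = 0.00149). *fgf14*, with 18 and 12 in EpiCs and 662 and 662 in CMs, belongs to the intracellular members that bind sodium channels and is no secreted ligand. Of 18 receptor and response genes, 9 were not called. 6 were higher in EpiCs, all of them receptors or the receptor-like *fgfrl1b*, and 3 in CMs, the response genes *dusp6*, *spry4* and *etv4*. The 3 in CMs were near the share of all genes tested (21.0% higher in EpiCs, 18.0% in CMs). The count of 3 was 1 with quantile or cyclic loess normalization and 2 at equal read totals, and *spry4* was not called under the first pair (log2FC -0.47 and -0.43). *fgfr4* (danRer11 chromosome 21, 37183124 to 37194839) had 6607 and 7053 in EpiCs and 107 and 197 in CMs (log2FC 5.54, SE 0.26, Padj = 7.87e-06), and *fgfr3* had 3147 and 2530 in EpiCs and 139 and 171 in CMs (log2FC 4.19, SE 0.26, Padj = 1.48e-05). *dusp6*, the phosphatase induced by ERK signalling, had 1316 and 863 in EpiCs and 4333 and 3099 in CMs (log2FC -1.78, SE 0.24, Padj = 0.000538). The receptor values did not overlap between the cell types, and *dusp6* was higher in both CM libraries.

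Adhesion and junction genes were found on both sides. Keratins were an EpiC group, with 11 of 12 higher there and 0 in CMs, and *krt4* had values of 621 and 852 in EpiCs and 0 and 0 in CMs (at least 215-fold). Connexins were shared out evenly, with 5 of 12 higher in each cell type. *cx43*, a gap junction channel, had 1445 and 1714 in EpiCs and 3 and 14 in CMs (log2FC 7.67, SE 0.66, Padj = 5.64e-05), and *gja5b* had 1 and 1 in EpiCs and 2526 and 1891 in CMs (log2FC -10.09, SE 0.42, Padj = 5.71e-06). Among 22 integrins, 9 were higher in EpiCs and 2 in CMs. The receptor subunit *itga9* had 2020 and 1941 in EpiCs and 29 and 42 in CMs (log2FC 5.79, SE 0.32, Padj = 1.15e-05), and 1 of the 2 in CMs, *itgb2*, is the subunit of leukocyte integrins and was at 0 and 0 in EpiCs and 108 and 173 in CMs. *itgb2* passed the filter only through the *tcf21*-/- CM libraries, so its call is a description. It was not called in *tcf21*+/+ (log2FC -0.14, Padj = 0.928 with limma). Caveolae genes were split by family member. *cav2* (log2FC of 3.0, SE 0.25), *cav1*, *cavin1b* and *cavin4b* were higher in EpiCs, and *cav3*, the muscle caveolin, had 51 and 29 in EpiCs and 809 and 711 in CMs (log2FC -4.27, SE 0.46, Padj = 0.000168) and was joined by *cavin1a* (log2FC -4.68, SE 0.75).

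The other junction lists were mixed. Of 33 cadherin, catenin and desmosome genes, 12 were higher in EpiCs and 5 in CMs. *cdh15*, a cadherin known from muscle precursors, had values of 162 and 95 in EpiCs and 0 and 0 in CMs (log2FC 6.97, SE 0.90, Padj = 0.000444), and *cdh13*, an atypical cadherin with a lipid anchor, had 115 and 93 in EpiCs and 960 and 1284 in CMs (log2FC -3.41, SE 0.49, Padj = 0.000767). Of 19 claudin and tight junction genes, 9 were higher in EpiCs and 2 in CMs. *cldn5a*, a barrier claudin, had 283 and 249 in EpiCs and 18 and 19 in CMs (log2FC 3.77, SE 0.71, Padj = 0.00314). The scaffold gene *tjp1b* was higher in both CM libraries, with 622 and 683 in EpiCs and 1639 and 1695 in CMs (log2FC -1.35, SE 0.24, Padj = 0.00255). Of 6 ErbB receptor and neuregulin genes, 0 favoured CMs and 2 favoured EpiCs, *egfra* (log2FC 1.86, SE 0.45, Padj = 0.011) and *erbb4b* (log2FC 0.98, SE 0.30, Padj = 0.0288). *egfra* was lost without CM replicate 2 or either EpiC replicate, and *erbb4b* without any 1 *tcf21*-/- library.

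Among genes with a mean of at least 50, the 10 largest differences in favour of CMs were those of *and2*, *hsc70*, *nnt2*, *gja5b*, *asb2a.1*, *tiam1a*, *fhl2b*, *tnni4a*, *atp1a3b* and *fzd5*. *and2*, an actinodin known from the fin fold of zebrafish, had values of 0 and 0 in EpiCs and 2102 and 1621 in CMs, at least 736-fold higher in CMs (Padj = 1.37e-05). *tnni4a*, a troponin I that inhibits contraction at low calcium, had 21 and 0 in EpiCs and 4326 and 3753 in CMs (log2FC -9.75, SE 1.84, Padj = 0.00315), and *atp1a3b*, a sodium pump subunit, had 2 and 1 in EpiCs and 1789 and 1554 in CMs (log2FC -9.41, SE 0.61, Padj = 1.84e-05). *fzd5*, a receptor of Wnt ligands, had 0 and 4 in EpiCs and 1277 and 1144 in CMs (log2FC -9.08, SE 1.2, Padj = 0.000483). The EpiC libraries were near or at 0 for these genes. 3 of the 10 had 0 in both EpiC libraries, and all 10 were also called higher in CMs in *tcf21*+/+. *hsc70* and *asb2a.1* lie over another annotated gene.

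Sarcomere genes were mostly higher in CMs. Of 46 genes of the thin filament, M-band and Z-disc, 37 were higher in CMs and 5 in EpiCs, with a median log2FC of -2.52 (-2.81 in *tcf21*+/+). *fhl2b*, a LIM protein of the Z-disc, had values of 0 and 0 in EpiCs and 690 and 1078 in CMs, at least 349-fold higher in CMs (Padj = 1.98e-05), and *tnnc1b*, a troponin C, had 13 and 27 in EpiCs and 1352 and 1228 in CMs (log2FC -6.03, SE 0.38, Padj = 1.67e-05). The 5 exceptions included *tpm4b*, a tropomyosin, with 3357 and 3226 in EpiCs and 38 and 56 in CMs (log2FC 6.13, SE 0.33, Padj = 1.00e-05). Of 16 myosin chain genes, 7 were higher in CMs and 2 in EpiCs. *myh7bb*, a slow heavy chain, had 347 and 236 in EpiCs and 8555 and 8542 in CMs (log2FC -4.90, SE 0.45, Padj = 7.77e-05), while *myl1*, a light chain of fast skeletal muscle, had 924 and 511 in EpiCs and 0 and 0 in CMs (at least 209.6-fold higher in EpiCs) and moved with the skeletal muscle markers above.

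Calcium cycling genes were mostly higher in CMs, and ion channel and natriuretic peptide genes were divided. Of 20 calcium cycling genes, 13 were higher in CMs and 4 in EpiCs. *ryr2b*, a calcium release channel of the sarcoplasmic reticulum, had values of 208 and 200 in EpiCs and 7867 and 8076 in CMs (log2FC -5.28, SE 0.32, Padj = 1.45e-05), and *casq1b*, a calsequestrin that stores calcium there, had 8 and 21 in EpiCs and 1569 and 1377 in CMs (log2FC -6.71, SE 0.81, Padj = 0.000288). Ion channels, 54 tested, gave 18 higher in CMs, 12 in EpiCs and 24 not called. The EpiC count was near the share of all genes tested (21.0% higher in EpiCs, 18.0% in CMs). *kcnq1.1*, a delayed rectifier that repolarises CMs, had 24 and 38 in EpiCs and 2640 and 2772 in CMs (log2FC -6.44, SE 0.32, Padj = 8.47e-06). The potassium channel subunit *kcne4* had 3585 and 3888 in EpiCs and 2 and 28 in CMs (log2FC 8.65, SE 1.49, Padj = 0.00198), so the direction differed between subunits. The 8 natriuretic peptide genes split into 3 higher in CMs, 4 higher in EpiCs and 1 not called. The ligands *nppa* and *nppb* (log2FC -4.31, SE 0.38) were higher in CMs. The receptor *npr1a* had 493 and 592 in EpiCs and 0 and 1 in CMs and was higher in EpiCs (log2FC 8.58, SE 0.66, Padj = 3.57e-05), as were *npr2* (log2FC 2.16) and *npr3* (log2FC 0.95). The ligand gene *nppc* was also higher in EpiCs, with 54 and 18 in EpiCs and 2 and 4 in CMs (log2FC 3.06, Padj = 0.0272). Its call was lost with quantile and cyclic loess normalization.

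Of 24 cardiac transcription factor genes, 15 were higher in *tcf21*-/- CMs and 1 in EpiCs. *tbx5a*, a T-box factor of CMs, had values of 16 and 21 in EpiCs and 2258 and 2123 in CMs (log2FC -6.82, SE 0.28, Padj = 5.71e-06), and *nkx2.7*, an early cardiac homeobox gene of zebrafish, had 50 and 29 in EpiCs and 1118 and 1221 in CMs (log2FC -4.90, SE 0.34, Padj = 2.32e-05). *ppargc1a*, a coactivator of mitochondrial genes, had 75 and 10 in EpiCs and 949 and 1069 in CMs (log2FC -5.12, SE 0.75, Padj = 0.000859). The groups did not overlap in any of these. *gata4*, *gata5*, *gata6* and *hand2*, which the epicardium also expresses, were not called, with log2FC between -0.67 and 0.05. *srfa*, serum response factor, had 447 and 773 in EpiCs and 144 and 116 in CMs (log2FC 2.18, SE 0.56, Padj = 0.0145) and was the exception.

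Genes of energy metabolism were higher in CMs almost without exception. Over the 5 lists of respiratory chain complexes and ATP synthase, which include assembly factors, 81 of 90 genes were higher in CMs and 2 in EpiCs, with medians between -1.35 and -0.87 per list. *ndufa4*, an electron transport subunit, had values of 285 and 254 in EpiCs and 2500 and 2129 in CMs (log2FC -3.10, SE 0.22, Padj = 2.78e-05), and *cox6a2*, the muscle form of a complex IV subunit, had 67 and 73 in EpiCs and 970 and 863 in CMs (log2FC -3.69, SE 0.30, Padj = 4.39e-05). The 2 exceptions were *ndufa4l2a* (log2FC 3.73, SE 1.07) and *cox4i2* (log2FC 2.88, SE 0.44), paralogues of subunits that were higher in CMs. *ndufa4l2a* was not called with quantile (Padj = 0.0504) or cyclic loess normalization (Padj = 0.11). Of 18 TCA cycle genes, 17 were higher in CMs, and *ogdha*, of the oxoglutarate dehydrogenase complex, had 1013 and 1078 in EpiCs and 5351 and 5322 in CMs (log2FC -2.35, SE 0.14, Padj = 1.45e-05). Its paralogue *ogdhb* was the only one higher in EpiCs, with 203 and 332 in EpiCs and 44 and 27 in CMs. Fatty acid oxidation genes gave 24 of 26 higher in CMs, with *cpt1ab*, which admits fatty acids to mitochondria, at 1215 and 1042 in EpiCs and 5806 and 5599 in CMs (log2FC -2.34, SE 0.15, Padj = 1.67e-05). Glycolysis genes gave 27 of 31, with *pfkmb*, a phosphofructokinase, at 71 and 97 in EpiCs and 4065 and 3828 in CMs (log2FC -5.55, SE 0.66, Padj = 0.000269), and *hk2*, a hexokinase, the only one higher in EpiCs, at 574 and 570 in EpiCs and 84 and 37 in CMs (log2FC 3.33, SE 0.45, Padj = 0.000525).

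Mitochondrial ribosomal protein genes gave 72 of 74 higher in CMs (median log2FC -1.31), and *mrps15* had values of 391 and 332 in EpiCs and 1353 and 1190 in CMs (log2FC -1.81, SE 0.26, Padj = 0.000691). Cytosolic ribosomal protein genes had 4 of 83 called, all higher in CMs, at a median log2FC of -0.41. Their summed values were 66166 and 60693 in EpiCs and 89548 and 79577 in CMs. With a read worth an estimated 0.8435 and 0.795 in EpiCs and 1.141 and 0.9745 in CMs, these sums stood for nearly equal read numbers. Whether counts of these genes had a ceiling was not tested, so their shift toward CMs is a description. 1 of the 4, *rps19bp1*, encodes a protein that binds a ribosomal protein and is no subunit. In *tcf21*+/+, 61 of the 83 were called at a median of -0.65, a count that was 14 to 34 under the other scalings. The test of the difference between genotypes listed 0 of the 83 at an unadjusted P under 0.05, and limma called 0 of them. Creatine kinases, adenylate kinases and myoglobin gave 8 of 10 higher in CMs and 2 in EpiCs. *ckmt2b*, the sarcomeric mitochondrial creatine kinase, had 19 and 11 in EpiCs and 2353 and 2186 in CMs (log2FC -7.19, SE 0.36, Padj = 8.72e-06), and *mb*, myoglobin, had 220 and 195 in EpiCs and 2517 and 2330 in CMs (log2FC -3.54, SE 0.19, Padj = 1.07e-05).

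Cell cycle genes lay on the EpiC side, with 15 of 34 higher in *tcf21*-/- EpiCs and 1 in CMs, against 8 and 2 in *tcf21*+/+. *kif11*, a spindle kinesin, had values of 1298 and 1594 in EpiCs and 250 and 361 in CMs (log2FC 2.26, SE 0.25, Padj = 0.000209), and *mki67*, a proliferation marker, had 939 and 1557 in EpiCs and 402 and 332 in CMs (log2FC 1.72, SE 0.28, Padj = 0.0014). *gmnn*, geminin, the inhibitor of replication licensing, was the 1 gene higher in CMs, with 202 and 138 in EpiCs and 394 and 296 in CMs (log2FC -1.03, SE 0.32, Padj = 0.0301). The genes higher in EpiCs included the mitotic kinases *aurka* and *plk1*, and none of *mcm2* to *mcm7*, the replicative helicase genes, was called, with log2FC between -0.14 and 0.32. Whether the count differs between genotypes was not tested. Genes known to respond to dissociation gave 11 of 32 higher in EpiCs and 2 in CMs. *klf4* had 269 and 219 in EpiCs and 6 and 6 in CMs (log2FC 5.12, SE 0.56, Padj = 0.000173), and *nr4a1* had 788 and 662 in EpiCs and 3790 and 2885 in CMs (log2FC -2.19, SE 0.21, Padj = 8.08e-05), so that these genes were present at unequal levels in the 2 sorted populations. Their part in other groups was not tested.

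Zebrafish retain many gene pairs from an ancient genome duplication, and pairs of genes with symbols ending in a and b were compared. Of 1661 pairs with both genes tested, neither was called in 557 and 1 in 676. Both were called in the same direction in 333, 194 of them higher in EpiCs and 139 in CMs. In 95 pairs, the genes were called in opposite directions, and for 53 of these the same 2 directions were called in *tcf21*+/+. Whether 95 departs from what the shares of all genes (21.0% and 18.0%) would give was not tested. The next pairs were chosen after their values were seen, from the 75 opposite pairs in which both genes had a mean of at least 50. *col18a1a*, a basement membrane collagen, had values of 482 and 412 in EpiCs and 9006 and 9069 in CMs and *col18a1b* had 2012 and 1694 in EpiCs and 0 and 21 in CMs. *slc8a1a*, the sodium-calcium exchanger of CMs, had 326 and 278 in EpiCs and 7867 and 6817 in CMs and *slc8a1b* had 94 and 168 in EpiCs and 0 and 0 in CMs. Within each of these pairs the a copy was higher in both CM libraries and the b copy in both EpiC libraries. *smtna*, a smoothelin of contractile cells, had 528 and 502 in EpiCs and 13 and 6 in CMs and *smtnb* had 48 and 13 in EpiCs and 1209 and 1115 in CMs. *ptgs2a* was at 2837 and 2757 in EpiCs and 0 and 0 in CMs, while *ptgs2b* was at 0 and 5 in EpiCs and 65 and 165 in CMs. Here the a copy was the EpiC gene. *megf6a* and *megf6b* had log2FC of -4.34 and 6.44, and *nrp2a* and *nrp2b*, semaphorin and VEGF coreceptors, of 9.64 and -1.78. Reads matching several genes had been excluded in counting, so that near-identical copies, such as the 2 gene records named *actc1a*, can hold too few reads.

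**Figure D4:**
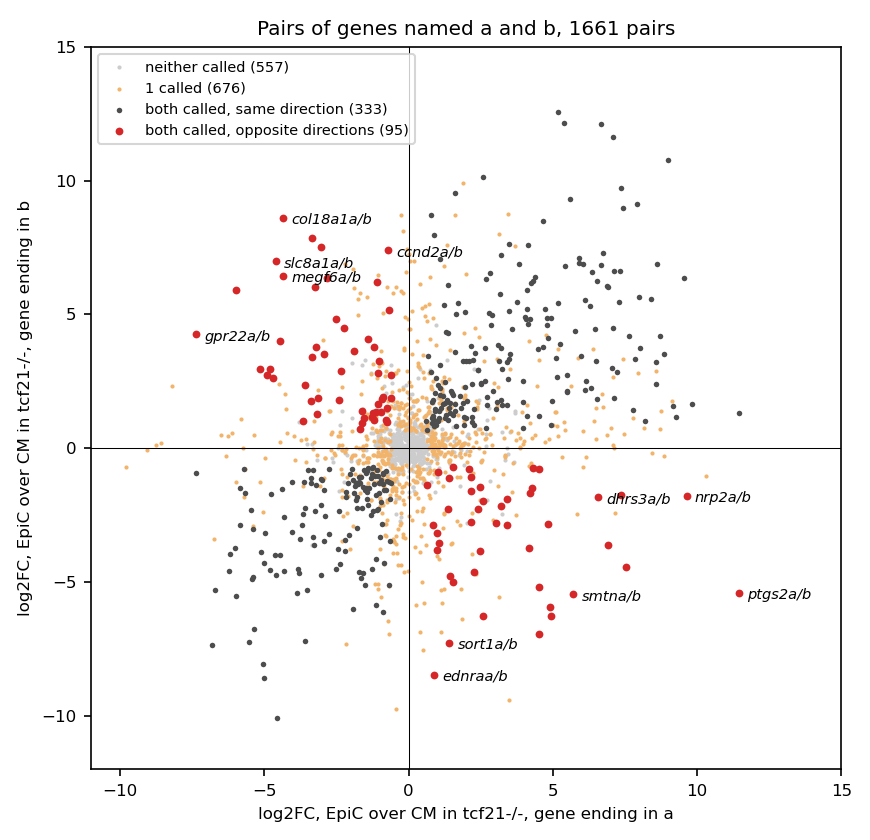
Each point is 1 of 1661 pairs of genes with symbols ending in a and b, with the *tcf21*-/- log2FC of EpiCs over CMs of the a gene on the x axis and of the b gene on the y axis. The 95 red points, called in opposite directions, lie at the upper left and the lower right.

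The secreted factors that the study singled out, and *fgfr4*, were followed in all 4 groups, and since the study chose them on these samples their values are a description. *fgf24*, an FGF ligand, had values of 238 and 209 in EpiCs and 39 and 19 in CMs in *tcf21*-/- and was called higher in EpiCs (log2FC 2.99, SE 0.67, Padj = 0.00734), and it had 620 and 865 in EpiCs and 42 and 10 in CMs in *tcf21*+/+ (log2FC 5.08). *cxcl14* was also called in *tcf21*-/- (log2FC 3.45, SE 0.50, Padj = 0.000821), with 774 and 380 in EpiCs and 76 and 31 in CMs. *vegfaa*, the angiogenic ligand, had 750 and 391 in EpiCs and 294 and 358 in CMs in *tcf21*-/- (log2FC 0.74, SE 0.37, Padj = 0.148) and 1983 and 1607 in EpiCs and 124 and 212 in CMs in *tcf21*+/+ (log2FC 3.45). Its *tcf21*-/- EpiC values lay above the CM values by a margin that did not pass the test. *fgf10a* (Padj = 0.157), *angptl6* (Padj = 0.167), *vegfba* (Padj = 0.47), *csf1b* (Padj = 0.444) and *tdgf1* (Padj = 0.989) were not called in *tcf21*-/- either. All but *tdgf1* were called higher in EpiCs in *tcf21*+/+. *ntf3*, a neurotrophin, had 41 and 56 in EpiCs and 199 and 187 in CMs in *tcf21*-/-, higher in CMs (log2FC -1.99, SE 0.35, Padj = 0.00238), and 278 and 275 in EpiCs and 148 and 133 in CMs in *tcf21*+/+ (log2FC 0.97). The difference between genotypes had a Padj of 0.161 for *ntf3*, 0.205 for *vegfaa*, 0.205 for *csf1b*, 0.212 for *fgfr4* and 0.724 for *fgf24* with limma, so none was called. The study also compared EpiCs with CMs, and reports both *fgf24* and *vegfaa* as enriched in EpiCs. For the effect of the mutation it compared the genotypes within a cell type. It reports *fgf24* and *vegfaa* as lower in *tcf21*-/- EpiCs, with RT-qPCR of isolated hearts, and *fgfr4* as lower in *tcf21*-/- CMs. That comparison was not tested here. *fgfr4* was higher in EpiCs in both genotypes, with 6714 and 6325 in EpiCs and 478 and 542 in CMs in *tcf21*+/+ (log2FC 3.68). The study describes *fgfr4* as highly expressed in CMs, where the values here lay below those of EpiCs.

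**Figure D5:**
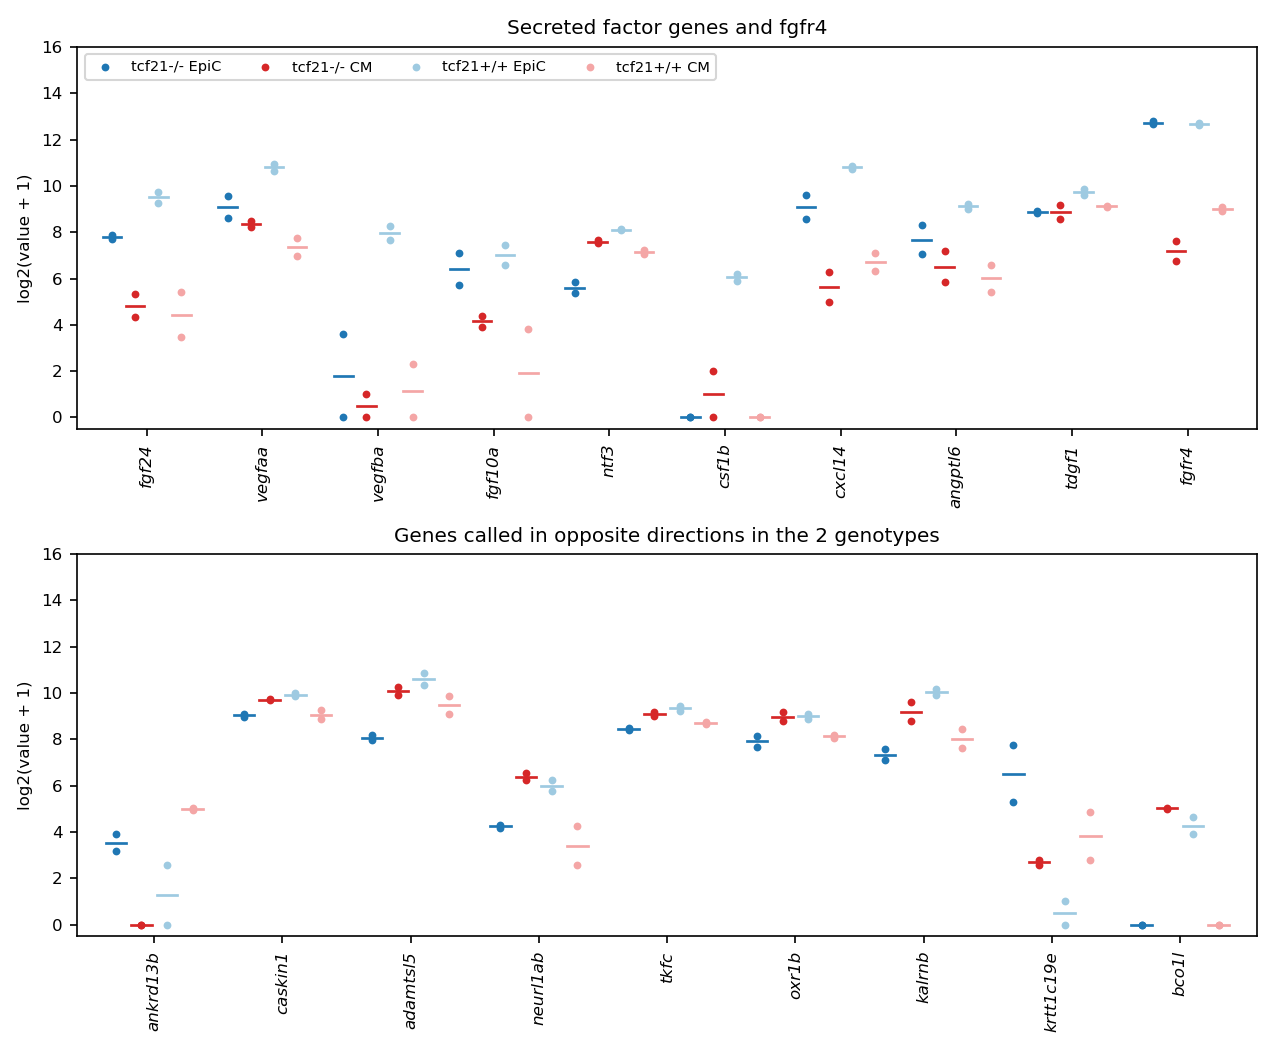
Values of all 8 libraries on log2(value + 1), with 1 point per library and a bar at the mean of the 2 libraries of a group. In the upper panel, *vegfaa*, *csf1b* and *vegfba* are higher in *tcf21*+/+ EpiCs (pale blue) than in the other 3 groups, and in the lower panel 7 of 9 genes have *tcf21*-/- EpiCs (blue) below *tcf21*-/- CMs (red).

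Some calls named above were lost when 1 library was left out. *zeb1b* was lost without any 1 *tcf21*-/- library (Padj up to 0.176) or any 1 *tcf21*+/+ EpiC library, and *col4a6* without any 1 *tcf21*-/- library (Padj up to 0.0847). *tnnt2a* was lost without CM replicate 1 (Padj = 0.0675) or either EpiC replicate, *gmnn* without either CM replicate or EpiC replicate 2 (Padj = 0.176), and *srfa* without either CM replicate or EpiC replicate 2 (Padj = 0.127). *ndufa4l2a* was lost without CM replicate 1 (Padj = 0.137) or either EpiC replicate, and *cavin4b* without CM replicate 2, either EpiC replicate of *tcf21*-/- (Padj up to 0.169) or either of *tcf21*+/+. *fgf24* was lost without CM replicate 2 (Padj = 0.05) or EpiC replicate 1 (Padj = 0.0584), *cdh5* and *nrp2b* without EpiC replicate 2 (Padj = 0.0736 and 0.0551), and *mfap4* without CM replicate 2 (Padj = 0.0505). *fn1b*, *lsp1a*, *wt1b*, *cavin1b*, *aspn*, *casq1b*, *gmnn*, *kcne4*, *ogdha*, *ogdhb*, *pdgfc* and *sfrp1a* lie over another annotated gene. Reads on several genes had been excluded in counting, so these genes can hold too few reads. Overlap was judged from the ends of the genes, and whether exons overlap was not tested.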

How the data were processed

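RNA-seq libraries of EpiCs and CMs sorted at 96 hpf were made from about 4 ng of RNA with SMART-Seq v4. By the methods and the labels, the authors trimmed reads with Trimmomatic 0.39, aligned them to danRer11 with STAR 2.7.3a and counted them per gene with featureCounts 1.6.5, leaving out reads on several genes or positions, and used DESeq2 1.26.0. Strandedness is not given in the sources used here, so whether strand could separate overlapping genes (38 of the 296 named) is not known. With reads on several genes left out, such genes can hold too few reads. The deposited signal values are scaled gene counts: each library had its own factor, seen in the spacing of its low values, and decimals were rounded away. In libraries scaled down, different read numbers share a value, so count models were not used. The spacing gave the reads per library, 8.32 to 11.4 M in *tcf21*-/-.

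log2(value + 1) was fitted with limma 3.58.1 in R 4.3.3 (abundance trend, all 8 libraries, a mean for each of the 4 groups, 2-sided tests), after testing on simulated data. P values and SE rest on the spread between the 2 libraries of a group, which the study calls biological replicates. That spread was pooled per gene over all 4 groups and moderated across genes, so a gene has the same SE in both genotypes. For *aldh1a2* it includes the values of 71 and 0 in *tcf21*+/+ CMs. The gene lists (53) were described by counts and medians. A fold against a group with 0 in both libraries was the mean of the other group over 3 reads, at the larger value per read. It bounds the ratio of means and leaves out the spread between libraries. Named genes were the 10 largest differences each way, the marker and reporter genes, up to 4 and 2 called genes of each list in its main and other direction, the study's secreted factor genes and genes called in opposite directions, the last added later. Genes given only to state a range or an exception were named after their values were seen. Members and lists were chosen with earlier results of these data known. Alternatives were other pseudocounts, filters, scalings, weights, fold limits and fits, with replicate blocks, and the omission of single libraries. Python 3.11.15 prepared the tables and figures.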

Additional observations from a re-analysis of the deposited data

Results flagged for a closer look

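9 genes were called in opposite directions in the 2 genotypes. Every EpiC library lay on the other side of every CM library in each genotype, a description, since these calls picked the genes. The test of the difference between genotypes called none of them (limma, Padj between 0.0992 and 0.26), and the directions alone brought them here. 7 of them were higher in CMs in *tcf21*-/- and higher in EpiCs in *tcf21*+/+. *adamtsl5*, of the ADAMTS-like matrix proteins, had values of 294 and 247 in EpiCs and 1232 and 976 in CMs in *tcf21*-/- and 1882 and 1303 in EpiCs and 551 and 933 in CMs in *tcf21*+/+, a difference in log2FC of -3.15. *kalrnb* had 189 and 136 in EpiCs and 444 and 780 in CMs in *tcf21*-/-, and 1158 and 961 in EpiCs and 344 and 195 in CMs in *tcf21*+/+ (difference -3.89). *bco1l* had 0 and 0 in EpiCs and 32 and 31 in CMs in *tcf21*-/-, and 14 and 24 in EpiCs and 0 and 0 in CMs in *tcf21*+/+ (difference -9.30), few reads in any library. The same direction was seen for *neurl1ab* (difference -4.72), *oxr1b* (-1.95), *caskin1* (-1.55) and *tkfc* (-1.27). Their *tcf21*-/- calls were lost in part when settings changed. That of *tkfc* was lost in 12 settings, including equal read totals (Padj = 0.0641), the replicate block (Padj = 0.0673) and without any 1 *tcf21*-/- library (Padj up to 0.196). Those of *neurl1ab* (Padj up to 0.149) and *caskin1* (Padj up to 0.13) were lost without any 1 *tcf21*-/- library, and that of *neurl1ab* also without either *tcf21*+/+ EpiC library. That of *oxr1b* was lost without *tcf21*-/- CM replicate 2 (Padj = 0.102) or *tcf21*-/- EpiC replicate 2 (Padj = 0.0964). In the reverse direction, the keratin gene *krtt1c19e* had 38 and 214 in EpiCs and 6 and 5 in CMs in *tcf21*-/-, and 1 and 0 in EpiCs and 28 and 6 in CMs in *tcf21*+/+ (difference 7.15), with 1 EpiC library far above the other, and *ankrd13b* had 8 and 14 in EpiCs and 0 and 0 in CMs in *tcf21*-/-, and 0 and 5 in EpiCs and 30 and 32 in CMs in *tcf21*+/+ (difference 7.25). The *tcf21*-/- call of *ankrd13b* was lost with quantile (Padj = 0.13) and cyclic loess normalization (Padj = 0.269) and without any 1 *tcf21*-/- library (Padj up to 0.0984), and that of *krtt1c19e* with cyclic loess (Padj = 0.133) and without either *tcf21*-/- CM replicate or *tcf21*-/- EpiC replicate 2 (Padj up to 0.14). With *tcf21*+/+ CM replicate 2 left out, the test between genotypes called *neurl1ab* (Padj = 0.0444), *caskin1* (Padj = 0.0401), *kalrnb* (Padj = 0.0401) and *bco1l* (Padj = 0.0374). It also called *kalrnb* with quantile normalization (Padj = 0.039) and *bco1l* without the abundance trend (Padj = 0.0069). *krtt1c19e*, *bco1l* and *ankrd13b* passed the filter only through groups in which they were high, so their directions are a description. *adamtsl5* and *caskin1* lie over other annotated genes.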

How the results depend on the processing

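Under the 12 alternatives that changed pseudocount, filter, scaling, trend, weights, fold limit, the libraries fitted or the block, *tcf21*-/- cells had 5389 to 7246 genes called, against 6259, and at least 84.9% of the 6259 were called again in the same direction. Leaving out 1 *tcf21*-/- library gave 4336 to 4848 calls. The median log2FC of all genes was 0.09 and shifted to -0.06 with quantile normalization, to 0.01 with cyclic loess and to 0.14 with equal read totals. EpiC genes were 53.8% of the calls, and 48.3% with quantile normalization. The median of semaphorins, plexins and neuropilins reversed to -0.10 with quantile normalization. The test between genotypes called 0 genes, but 9 with quantile normalization and 58 without the abundance trend, and 0 to 119 leaving out 1 library, with 119 without *tcf21*+/+ CM replicate 2. The 9 genes called in opposite directions were 5 with a mean of at least 50, 15 with cyclic loess, 14 without the trend, 5 with only the compared libraries, and 4 to 30 leaving out 1 library. Opposite a and b pairs, 95, were 48 to 116 leaving out 1 library. Of 289 named genes called, 237 were called under every alternative that tested them and 52 were lost in at least 1. Of these 289, 31 to 40 were lost without 1 *tcf21*-/- library. Deviations of same-numbered libraries correlated across genes at -0.081 to 0.067 over 6 pairs of groups. With 2 libraries per group, such correlations cannot show whether the numbers paired samples by hearts or sorting session. The replicate block called 6125 genes, 5080 genes called in both genotypes became 4980 and 0 differed between genotypes, and with the *tcf21*-/- libraries alone, chosen after seeing the data, it called 6272. The 5080 became 4341 with only the compared libraries fitted. Precision was limited by 2 libraries per group and by the reads counted on genes, an estimated 8.32 to 11.4 M in *tcf21*-/-.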

Other observations

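Of 257 long intergenic noncoding RNA genes, 42 were higher in EpiCs (16.3%) and 39 in CMs (15.2%), against 21.0% and 18.0% of all genes tested. CR848833.1 (ENSDARG00000117428) had values of 466 and 583 in EpiCs and 0 and 0 in CMs, and BX005396.4 (ENSDARG00000101658) had 2 and 3 in EpiCs and 207 and 181 in CMs. They have clone names only, and were chosen after their values were seen as the largest called difference each way at a mean of at least 50.

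The genes with the lowest P in the test between genotypes, none of them called (limma, lowest Padj = 0.0992), were seen after the test was run. *itga4*, an integrin subunit, had 411 and 192 in EpiCs and 22 and 36 in CMs of *tcf21*-/- hearts, against 1270 and 1082 in EpiCs and 0 and 0 in CMs of *tcf21*+/+ hearts. *loxl1* had 6868 and 8482 in EpiCs and 8 and 12 in CMs, against 5585 and 4797 in EpiCs and 61 and 96 in CMs. *hapln1a* had 209 and 219 in EpiCs and 2351 and 1781 in CMs, against 604 and 566 in EpiCs and 1203 and 991 in CMs. In these 3 genes the direction was the same in both genotypes. It was not in *bco1l*, given above, and *fgl2a*, with 39 and 64 in EpiCs and 62 and 54 in CMs (log2FC -0.21, not called) in *tcf21*-/- against 102 and 103 in EpiCs and 0 and 0 in CMs (log2FC 6.69) in *tcf21*+/+, which are also among the 6 lowest. The last of the 6, *ampd2b*, had log2FC of 1.49 and 4.66.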
